A study of Mus musculus with 352 samples.

Results

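The genes described here are the protein-coding genes whose symbols begin with Nduf, most of which encode subunits or assembly factors of respiratory complex I. A row of the expression table was taken when its Ensembl identifier maps to such a symbol, which gave 46 of the 14413 genes in the table. All 46 passed the filter on low values, a mean of at least 0 on the log2 FPKM scale (fragments per kilobase of exon, scaled to library depth), which 9862 genes passed. No measured change entered the rule, which uses names alone, though it was chosen with earlier results of these data known. By their known roles the 46 comprise 3 core and 7 accessory subunits of the part of the enzyme that takes electrons in, 4 core and 1 accessory subunit of the part that reduces ubiquinone, 20 accessory subunits of the membrane arm, the acyl carrier protein Ndufab1, the 8 assembly factors Ndufaf1 to Ndufaf8, and 2 genes that carry the name but are not complex I subunits: Ndufa4, which is now placed in complex IV, and its relative Ndufa4l2.

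Complex I is the entry point of the mitochondrial respiratory chain. Its matrix arm oxidises NADH and passes the electrons along iron-sulfur clusters to ubiquinone, and its membrane arm pumps protons. The nucleus encodes most subunits, the mitochondrial genome encodes the hydrophobic core of the membrane arm, and assembly factors that are not in the finished enzyme build and modify the modules. Skeletal muscle is rich in the complex, more so in oxidative than in glycolytic fibres. BMAL1, the transcription factor at the centre of the circadian clock, is the protein whose loss and tissue-limited return the study compared.

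RNA was sequenced from the tibialis anterior, a mouse hindlimb muscle, of C57BL/6 mice in 15 groups and 352 libraries, taken every 4 h at 6 times of day (ZT, zeitgeber time, counted in hours from lights on), with 3 to 5 libraries per group and time. Wild-type mice (WT) were compared with mice carrying Bmal1 stopFL/stopFL and no Cre (KO), a body-wide loss of BMAL1 through a removable stop cassette. Hsa-Cre, driven by a skeletal muscle actin promoter, removes the cassette in muscle fibres (Mu-RE), Syt10-Cre, driven by a promoter active in the central clock and other brain regions, removes it in brain (Br-RE), and RE-RE mice carry both transgenes; all 4 of these genotypes share the stopFL/stopFL alleles. Each genotype was sampled at 10 to 12 weeks (10 weeks below; 23 WT, 25 Mu-RE, 23 KO, 24 RE-RE and 23 Br-RE libraries) and at 26 weeks (22, 24, 24, 24 and 22 in the same order) with food ad libitum (ALF). Time-restricted feeding (TRF) was given to WT (24), KO (23) and Mu-RE mice (23) at 26 weeks, and old wild-type mice of 85 to 116 weeks were kept on ALF (24) or TRF (24). Libraries are separate mice, of both sexes in every group.

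Sequencing depth, recovered from the spacing of low values, was 14.4 to 46.8 mega-reads per library, with a median of 22.1. Arntl, the gene for BMAL1, gives no check of the labels by its level, since the stop-cassette allele still yields reads: libraries labelled KO lay between 2.99 and 4.31 (log2 FPKM), and those labelled WT between 0.13 and 5.14. Its spread over the day did differ, with a standard deviation (SD) of 0.19 to 0.26 in the 3 KO and 2 Br-RE groups and of 0.90 to 1.29 in the 3 WT groups. All 9 fast-fibre markers passed the filter and their summed FPKM had group medians of 36500 to 45200, against 45.8 to 81.3 for the 8 slow-fibre markers, and the tibialis anterior is known as a fast muscle. Myh7, the slow myosin, had a mean of -1.18 log2 FPKM, below the filter, and Myh4, the fast glycolytic myosin, a mean of 12.75. In whole muscle, fewer cells of a type and less RNA per cell cannot be told apart, and markers of other cells moved with the groups: all 5 tested macrophage markers were lower in KO than in WT at 10 weeks and 4 of 5 at 26 weeks, and 5 and all 8 of 8 endothelial markers were higher. Their part in the results below was not tested.

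The Nduf genes share 2 features that the choice did not use. They are short, with a median exon length of 1643.5 bases (range 419 to 8086) against 4151 for all genes tested, and they are abundant, with a median level of 6.57 against 2.31 log2 FPKM. A per-library length slope, the change of a gene's deviation from its mean per doubling of exon length, computed over all tested genes except these 46, moved with them. Within each of the 15 groups the mean of the 46 genes was higher in libraries where short genes in general were higher (Pearson r from -0.955 to -0.732, Spearman rho from -0.940 to -0.635, and r from -0.935 to -0.666 without the 2 libraries of most extreme slope, with 15 correlations computed and a largest adjusted p of 0.00181 by permutation with 100000 draws). The group means of the slope ran from -0.0444 in KO TRF to 0.0312 in RE-RE at 10 weeks. Each comparison below was therefore also fitted with the length slope as a covariate and on quantile-normalised values, and both are given where they change what is seen.

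**Figure D1:**
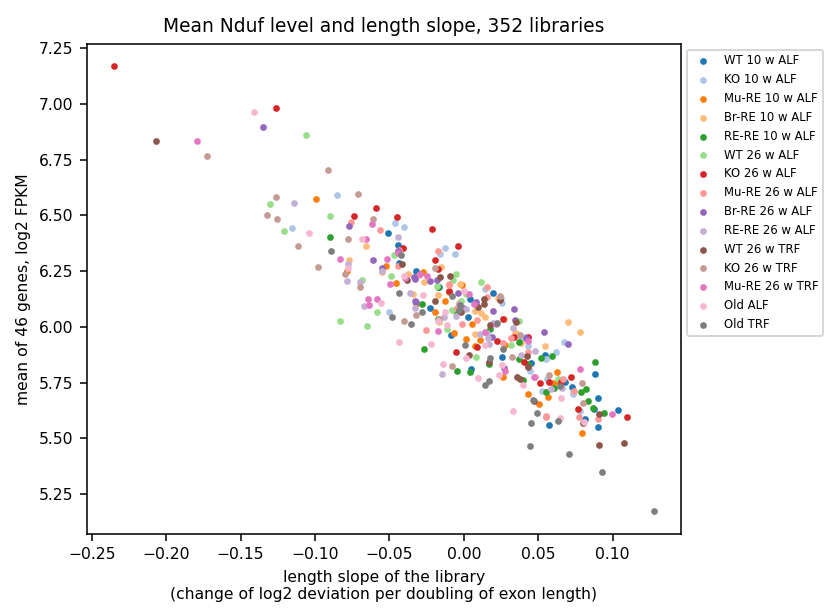
Mean log2 FPKM of the 46 Nduf genes (vertical) against the length slope of the same library (horizontal, change of log2 deviation per doubling of exon length), with 1 point for each of 352 libraries coloured by group. Libraries with a more negative slope, in which short genes are high, have the higher Nduf means in every group.

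The gene that differed most was Ndufaf5, an assembly factor of the methyltransferase family that modifies the core subunit Ndufs7 early in the building of the ubiquinone-reducing module. It was lower in KO than in WT and higher with Hsa-Cre than without it, at both ages. At 10 weeks WT libraries had a lowest, median and highest level of 3.56, 3.92 and 4.38 log2 FPKM, and KO libraries 3.29, 3.55 and 3.92. All 23 KO libraries were below the WT median and 12 were below the lowest WT library. The difference was -0.38 ± 0.07 (SE), a 0.771-fold level, with an adjusted p of 7.85e-06 by limma with Benjamini-Hochberg adjustment over 9862 genes. At 26 weeks WT libraries ran from 3.79 through 4.15 to 4.80 and KO libraries from 2.91 through 3.33 to 4.18, and 19 of 24 KO libraries lay below every WT library. That difference was -0.76 ± 0.09 (adjusted p 4.11e-09), and the change in the KO effect between the ages was itself past the threshold (-0.39 ± 0.11, adjusted p 0.00993).

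With Hsa-Cre the level of Ndufaf5 was higher. In Mu-RE libraries at 10 weeks it ran from 3.74 through 4.22 to 4.74, and 22 of 25 were above the highest KO library, a difference of 0.62 ± 0.07 (adjusted p 1.16e-10). It also exceeded WT there by 0.24 (adjusted p 0.00589). At 26 weeks Mu-RE was 0.60 ± 0.09 above KO (adjusted p 1.02e-06), with 23 of 24 libraries above the KO median, and its difference from WT did not pass (-0.16 ± 0.08, adjusted p 0.13). RE-RE and Br-RE differ by Hsa-Cre alone, and RE-RE was higher at both ages, by 0.62 ± 0.07 at 10 weeks (adjusted p 1.99e-10, 17 of 24 libraries above every Br-RE library) and by 0.68 ± 0.07 at 26 weeks (adjusted p 2.71e-10, 24 of 24 above the Br-RE median). Fitted together with the length slope, the 6 differences were -0.42, -0.65, 0.58, 0.66, 0.71 and 0.68 in the order given, and all 6 passed the threshold.

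Outside Br-RE and RE-RE the group means ± SD of Ndufaf5 were lowest in KO, at 3.44 ± 0.34 (26 weeks), 3.48 ± 0.26 (TRF) and 3.56 ± 0.21 (10 weeks). The other groups were WT at 3.94 ± 0.22 (10 weeks), 4.03 ± 0.28 (TRF) and 4.20 ± 0.25 (26 weeks), Mu-RE at 4.04 ± 0.28 (26 weeks), 4.18 ± 0.24 (10 weeks) and 4.23 ± 0.22 (TRF), and old mice at 4.08 ± 0.23 (TRF) and 4.19 ± 0.28 (ALF). Neighbours in this order, apart from KO at 10 weeks and WT at 10 weeks, are closer than their SD. Br-RE and RE-RE values appear to have been centred on the other genotypes of their age before deposition, so their levels are set only against each other: Br-RE stood at 3.58 ± 0.18 and 3.54 ± 0.26 and RE-RE at 4.21 ± 0.25 and 4.23 ± 0.24 at 10 and 26 weeks. No rhythm of Ndufaf5 was called in any group.

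**Figure D2:**
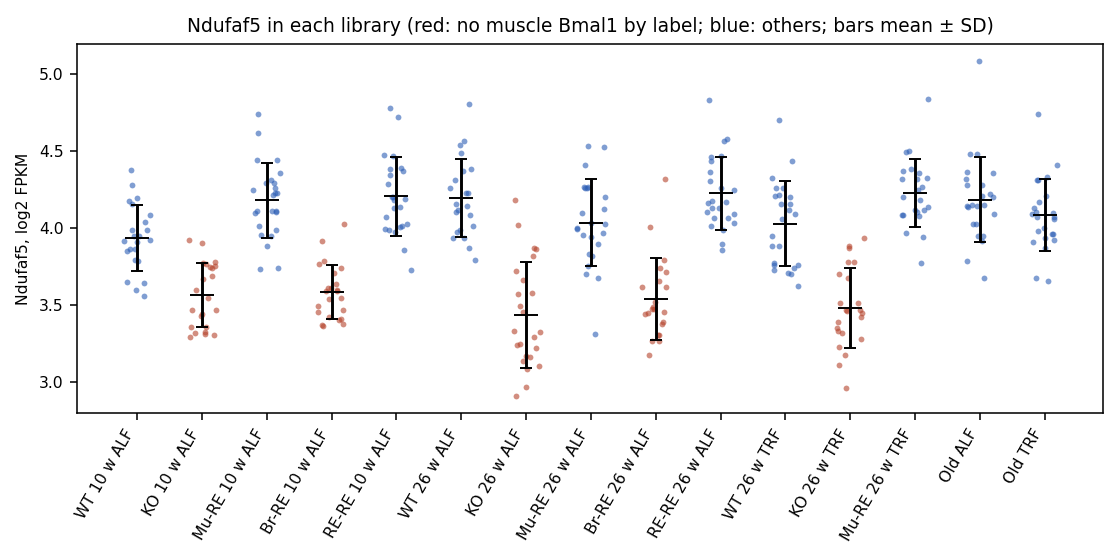
Ndufaf5 level (log2 FPKM) in each of 352 libraries by group, with the mean and SD as bars; red points are the KO and Br-RE groups, blue points the rest. KO means are 3.44 to 3.56 and WT means 3.94 to 4.20, and Br-RE is to be read against RE-RE only.

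The 250 bases upstream of the Ndufaf5 and Ndufaf4 start sites are printed because these are the assembly factors with the largest BMAL1-related level change and the most frequent daily rhythm (RefSeq, GRCm38.p6; Ndufaf5 chr2:140170396-140170645, plus strand, and Ndufaf4 chr4:24897833-24898082, plus strand).
Ndufaf5: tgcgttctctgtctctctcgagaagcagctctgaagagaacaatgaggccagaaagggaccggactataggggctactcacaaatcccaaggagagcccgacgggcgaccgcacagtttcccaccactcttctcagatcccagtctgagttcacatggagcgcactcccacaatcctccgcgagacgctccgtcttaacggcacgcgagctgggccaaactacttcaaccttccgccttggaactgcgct
Ndufaf4: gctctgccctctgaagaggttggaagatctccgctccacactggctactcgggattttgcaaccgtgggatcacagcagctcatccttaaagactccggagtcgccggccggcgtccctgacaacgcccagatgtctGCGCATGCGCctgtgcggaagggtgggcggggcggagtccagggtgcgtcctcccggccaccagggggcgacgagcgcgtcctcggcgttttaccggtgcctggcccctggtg

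The capitals in Ndufaf4 mark a match to GCGC, 2 bases of any kind and GCGC again, the core bound by NRF1, a regulator of nuclear genes for mitochondrial proteins. Promoters of 40 of the 46 genes were matched by symbol, and 5 motifs were searched on both strands of those 250 bases. The NRF1 core was in 9 (22.5%, among them Ndufaf4, Ndufab1, Ndufv2 and Ndufs6) against 5.64% of 27025 promoters. The E-box CACGTG, which BMAL1 and CLOCK bind, was in 2 (5.0%, Ndufa7 and Ndufv1) against 6.86%. CCGGAAG, bound by GABP, was in 5 (12.5%) against 7.83%, TTATGNAA, the D-box, in 1 (2.5%) against 3.63%, and TCAAGGTCA, bound by estrogen-related receptors, in 0 against 0.42%. Ndufaf5 held none of these letters in this window, which says nothing about the factors.

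In KO muscle at 10 weeks most Nduf genes were slightly above WT, with 43 of 46 positive differences and a median of 0.13 against -0.002 for all genes. The test called 11 higher (23.9%) and 2 lower (4.35%), where 20.3% of all genes were higher and 21.6% lower. Ndufa10, a membrane arm subunit with a nucleoside kinase fold, had WT libraries at 6.32, 6.51 and 6.74 and KO libraries at 6.51, 6.80 and 6.97 (lowest, median, highest), a difference of 0.25 ± 0.04 (adjusted p 2.77e-07), and 17 of 23 KO libraries were above every WT library. Among the largest differences were those of Ndufv3 (0.35 ± 0.11), a small subunit of the electron input module, Ndufa4l2 (0.34 ± 0.08), Ndufb7 (0.32 ± 0.09), and the assembly factor Ndufaf7 (0.28 ± 0.05), a methyltransferase. Lower genes were the assembly factors Ndufaf5 and Ndufaf4 (-0.28 ± 0.07, adjusted p 0.000532). Of the core genes Ndufs7 was higher (0.13 ± 0.04), while Ndufv1, Ndufv2, Ndufs1, Ndufs3 and Ndufs8 had differences of 0.07, 0.11, 0.12, 0.22 and 0.10 that did not pass. Leaving out in turn mouse 1, 2, 3 or 4 of every group and time point, in order of library number, gave 7 to 13 called genes. Leaving out mice by number has this sense below.

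At 26 weeks the KO difference was no longer on 1 side: 3 genes were higher (6.52%) and 4 lower (8.7%), where 24.4% of all genes were higher and 22% lower, with a median of -0.04. Ndufa10 (0.42 ± 0.05, adjusted p 1.36e-08) was higher, with 21 of 24 KO libraries above every WT library, and so was Ndufv1 (0.22 ± 0.09), which binds NADH and the flavin. The 4 lower genes were all assembly factors: Ndufaf5, Ndufaf2 (-0.46 ± 0.15), Ndufaf4 (-0.42 ± 0.08) and Ndufaf6 (-0.25 ± 0.07). Ndufaf2 shares 65.6% of its exon bases with B230220B15Rik, so its value is uncertain. Of the other assembly factors, Ndufaf1, Ndufaf3, Ndufaf7 and Ndufaf8 had differences between -0.06 and 0.16 that did not pass. The length covariate gave 15 genes higher and 4 lower (48.9% of all genes called), and after quantile normalisation 4 were higher and 8 lower (48.0% called). The direction of the family at this age therefore changes with the scaling. The 6 genes named here as higher or lower kept their calls and signs in both.

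Ndufaf6, which acts early in assembly, was 0.25 ± 0.05 above WT in KO muscle at 10 weeks and below it at 26 weeks. The difference between the 2 effects was -0.50 ± 0.09 (adjusted p 1.76e-05). Its WT level was 3.77 ± 0.26 at 10 weeks and 4.23 ± 0.20 at 26 weeks, while KO stood at 4.01 ± 0.17 and 3.97 ± 0.30. Ndufaf5 and Ndufaf6 were the 2 genes with a lower KO effect at 26 weeks (4.35%), and none had a higher one, where 10.6% of all genes had a higher and 8.17% a lower effect. The covariate gave 2 higher and 2 lower (20.1% of all genes called).

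**Figure D3:**
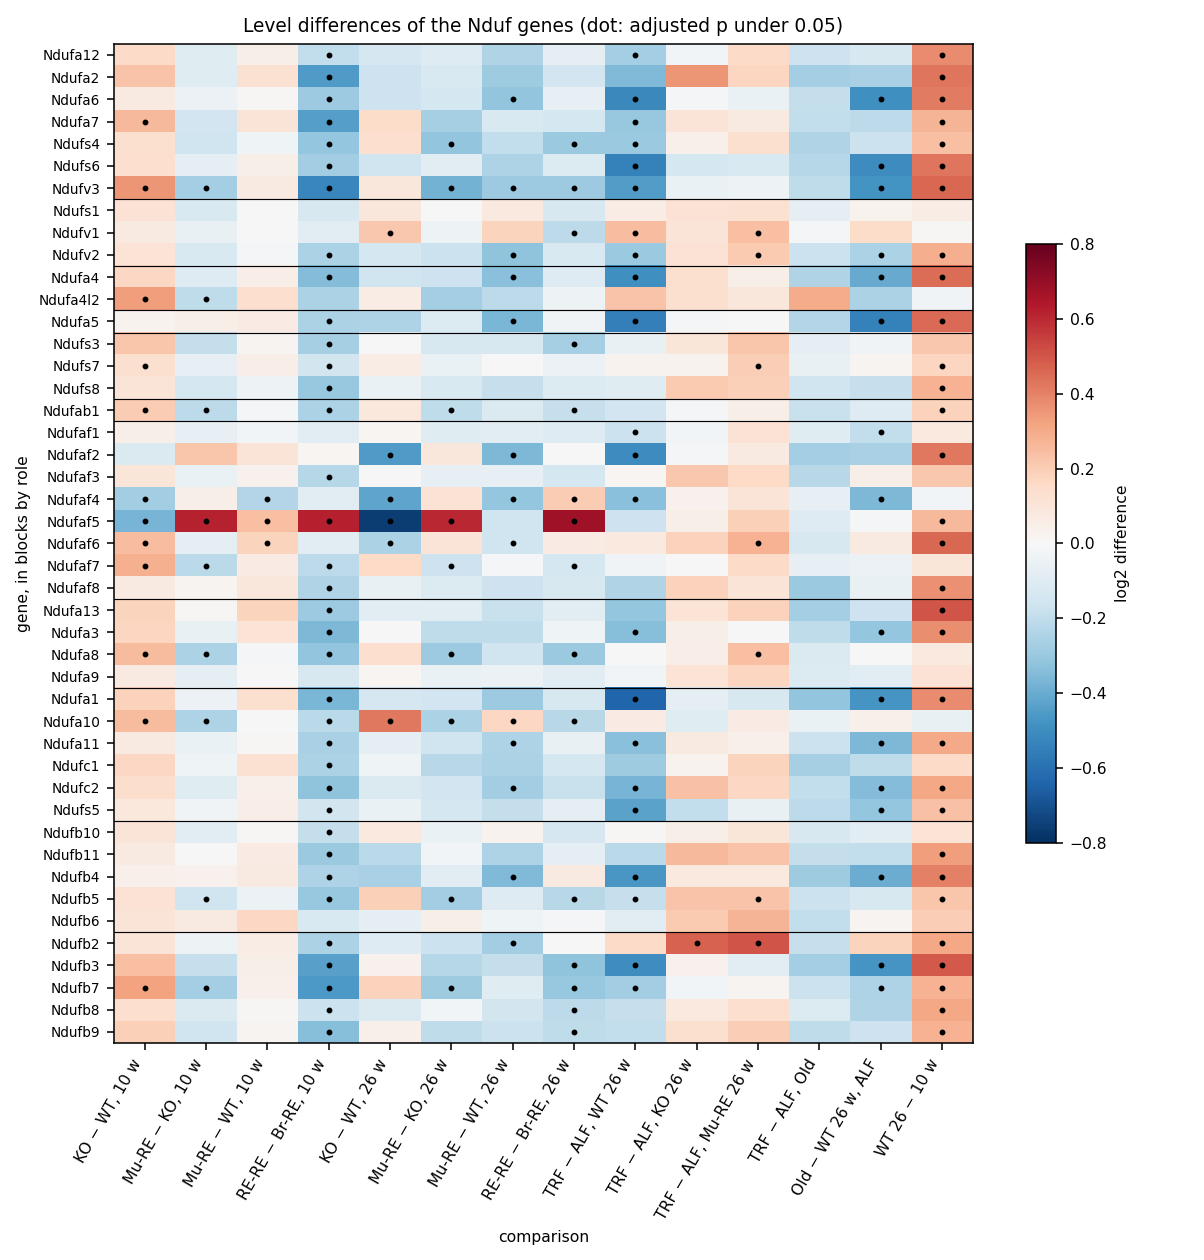
Level differences (log2, colour scale from -0.8 to 0.8) of the Nduf genes, in blocks by role, in 14 comparisons; a dot marks an adjusted p under 0.05 by limma. Ndufaf5 is the row that stands out in the KO, Mu-RE and RE-RE columns, while the columns RE-RE against Br-RE at 10 weeks, TRF in WT, and WT at 26 against 10 weeks are dominated by 1 colour.

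Against KO, the share of Nduf genes called higher in Mu-RE muscle was below that of all genes. The share called lower was near that of all genes. In Mu-RE against KO at 10 weeks 9 genes were lower (19.6%) and 1, Ndufaf5, higher (2.17%), where 17.2% of all genes were lower and 17.4% higher, and the median was -0.08. The lower genes included Ndufv3 (-0.27 ± 0.10), Ndufb7 (-0.27 ± 0.09), Ndufa8 (-0.26 ± 0.09) and Ndufa10 (-0.25 ± 0.03), the last with all 25 Mu-RE libraries below the KO median. The length slope as a covariate raised the count of lower genes to 31 and of higher genes to 2, with 40.0% of all genes called. Both this and the KO comparison use the same KO libraries. At 26 weeks 9 were again lower and Ndufaf5 higher, where 16.6% and 17.3% of all genes were, with a median of -0.13. Here Ndufv3 (-0.38 ± 0.13), Ndufs4 (-0.32 ± 0.11), an accessory subunit whose loss in mice causes a Leigh-like disease, Ndufa8 (-0.29 ± 0.09), Ndufb7 (-0.28 ± 0.11) and Ndufb5 (-0.28 ± 0.09) led. Leaving out the mouse of each number in turn gave 5 to 9 called genes at 10 weeks and 4 to 8 at 26 weeks. A term for the replicate number in the library titles gave more called genes at 26 weeks, as counted at the end.

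Against WT, Mu-RE differed little at 10 weeks. Ndufaf5 and Ndufaf6 (0.18 ± 0.06) were higher, Ndufaf4 lower (-0.24 ± 0.07), and no subunit was called, where 12.6% of all genes were higher and 13.9% lower; the length covariate gave 1 higher and 13 lower (29.0% of all genes called). At 26 weeks 12 were lower (26.1%) and 2 higher (4.35%), where 14.5% and 16.4% of all genes were, but the length covariate turned this to 1 lower and 6 higher (19.9% called). The lower genes were led by Ndufa5 (-0.36 ± 0.12), Ndufaf2 (-0.36 ± 0.12), Ndufb4 (-0.35 ± 0.09), Ndufa4 (-0.34 ± 0.10) and the core subunit Ndufv2 (-0.32 ± 0.08), none of which passed with the covariate. Ndufa10 (0.17 ± 0.04) was higher in both fits, with 23 of 24 libraries above the WT median. Ndufaf4 was lower in both. Leaving out the mouse of each number in turn gave 1 to 3 called genes at 10 weeks and 5 to 16 at 26 weeks. The replicate term again gave more called genes at 26 weeks, as counted at the end.

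RE-RE and Br-RE both carry Syt10-Cre, and more Nduf genes were called lower than higher in RE-RE. In RE-RE against Br-RE at 10 weeks 36 of 46 genes were lower (78.3%) and only Ndufaf5 was higher, where 17.4% of all genes were lower and 14.8% higher. The median was -0.25 against -0.01 for all genes. All 7 accessory subunits of the input module, the core subunits Ndufs3, Ndufs7 and Ndufs8 of the ubiquinone module and all 5 subunits next to ND5 were among them. Of these core subunits Ndufs7 was only just called (-0.14 ± 0.06, adjusted p 0.0467 by limma). It did not pass with the length covariate (-0.12) or after quantile normalisation (-0.03). Ndufv3 fell most, from 4.72, 5.05 and 5.77 in Br-RE to 4.12, 4.61 and 5.14 in RE-RE (lowest, median, highest), a difference of -0.52 ± 0.07 (adjusted p 1.49e-08). Next were Ndufb7 (-0.46 ± 0.06), Ndufa2 (-0.45 ± 0.08), Ndufa7 (-0.44 ± 0.07) and Ndufb3 (-0.43 ± 0.06). The covariate gave 28 lower genes and 1 higher (35.2% of all genes called), and leaving out mice by number gave 27 to 40 called. Slow-fibre markers were higher in 4 of 6 and fast-fibre markers lower in 5 of 9, and their part was not tested. At 26 weeks 14 were lower (30.4%) and 2, Ndufaf5 and Ndufaf4 (0.21 ± 0.06), higher, where 18.9% and 16.5% of all genes were. The lower genes included Ndufb3 (-0.32 ± 0.08), Ndufb7 (-0.30 ± 0.09), Ndufa8 (-0.30 ± 0.07) and Ndufs4 (-0.30 ± 0.07). The length covariate gave 22 lower and 2 higher (41.7% called), and leaving out mice by number gave 8 to 31.

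With TRF in WT muscle more Nduf genes were called lower than higher. In WT at 26 weeks 21 genes were lower with TRF (45.7%) and 1 higher (2.17%), where 20.1% of all genes were lower and 20.9% higher, with a median of -0.23 against 0.01. Ndufa1, a short membrane arm subunit, ran from 6.47 through 7.08 to 8.25 with ALF and from 5.68 through 6.67 to 7.38 with TRF, so the ranges overlap, and differed by -0.64 ± 0.14 (adjusted p 0.000416). Ndufa5 (-0.55 ± 0.13), Ndufs6 (-0.54 ± 0.12), Ndufa6 (-0.52 ± 0.11) and Ndufaf2 (-0.50 ± 0.11) followed. Of the 7 accessory input-module subunits 6 were lower, and the core subunits Ndufs3, Ndufs7 and Ndufs8 of the ubiquinone module were not called. Ndufv1 was the gene that was higher (0.25 ± 0.08). The length covariate gave 9 lower and 8 higher (40.4% of all genes called), with Ndufa1 at -0.31, and quantile normalisation gave 17 lower and 6 higher (41.5% called), so a family-wide direction depends on the scaling while Ndufa1, Ndufa5, Ndufs6, Ndufa6 and Ndufaf2 stayed lower in both. Leaving out mice by number gave 13 to 24 called genes.

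On the deposited values of all libraries, without the length covariate, no Nduf gene was called lower with TRF in KO or Mu-RE muscle. In KO 1 gene was higher (2.17%) and none lower, where 4.78% of all genes were higher and 9.38% lower. It was Ndufb2 (0.47 ± 0.13, adjusted p 0.0133), a membrane arm subunit at the lowest level of the 46, with an average of 0.96. The covariate gave 0 higher and 9 lower (10.7% called), and quantile normalisation 4 higher and 1 lower (16.1% called). In Mu-RE 7 were higher (15.2%) and none lower, where 9.05% of all genes were higher and 7.87% lower, but the length covariate gave 2 higher and 9 lower (5.71% called). Ndufb2 led there too (0.50 ± 0.09, adjusted p 0.000148), followed by Ndufaf6 (0.28 ± 0.05), Ndufa8 (0.24 ± 0.09), Ndufv1 (0.24 ± 0.08) and Ndufb5 (0.23 ± 0.07). Ndufb2 and Ndufaf6 were the 2 that stayed higher with the covariate. Leaving out mice by number gave 0 to 2 called genes in KO and 1 to 5 in Mu-RE. The replicate term gave more called genes in Mu-RE, as counted at the end.

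The TRF effect itself differed between KO and WT for 9 genes, all with a higher value in KO (19.6%), where 11% of all genes had a higher and 16.6% a lower effect in KO. They were Ndufa2 (0.70 ± 0.26), Ndufa4 (0.61 ± 0.17), Ndufc2 (0.60 ± 0.18), Ndufb4 (0.54 ± 0.18), Ndufa6 (0.50 ± 0.18), Ndufb5 (0.41 ± 0.13), Ndufv2 (0.41 ± 0.13), Ndufa11 (0.40 ± 0.14) and Ndufaf4 (0.36 ± 0.12). Given the length slope, 0 were higher and 3 lower (5.33% called) and none of the 9 passed, and with quantile normalisation 14 were higher and 3 lower (30.8% called). Leaving out mice by number gave 0 to 11 called genes, and leaving out 3 libraries of extreme length slope gave 24. They were 1 each of KO on ALF at ZT0, WT on TRF at ZT12 and Mu-RE on TRF at ZT12. The Mu-RE library does not enter this contrast. The mean length slope was -0.0325 in WT ALF and 0.0157 in WT TRF, against -0.002 and -0.0444 in KO, so it moved in opposite directions with TRF in the 2 genotypes. In old mice no gene was called for TRF by limma, where 0.122% of all genes were called higher and 0.0203% lower. At an unadjusted p under 0.05 there were 14 Nduf genes, and the share of all genes at that level is not given here. Of the 46 differences 1 was positive. The smallest p-values were those of Ndufaf8 (-0.29 ± 0.10, adjusted p 0.158), Ndufb4 (-0.29 ± 0.11, 0.197) and Ndufaf3 (-0.22 ± 0.09, 0.201). On the deposited values no Nduf gene was called by limma for a TRF effect that differs between old and 26-week WT mice. The length covariate and quantile normalisation each gave some calls, as counted at the end. Of all genes 0.994% were called with a higher and 1.11% with a lower effect. At an unadjusted p under 0.05 there were 5 Nduf genes, again without a share of all genes beside it.

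In wild-type mice 10, 26 and 85 to 116 weeks of age were compared on ALF. From 10 to 26 weeks 31 genes rose (67.4%) and none fell, where 20.9% of all genes rose and 16.1% fell, and the median was 0.28. Ndufa13 went from 6.39, 7.07 and 7.91 (lowest, median, highest) to 6.85, 7.55 and 8.59 with overlapping ranges (0.51 ± 0.14, adjusted p 0.00451), and Ndufb3 (0.49 ± 0.14), Ndufaf6 (0.46 ± 0.06), Ndufv3 (0.46 ± 0.10) and Ndufa5 (0.45 ± 0.13) followed. With the length covariate 1 rose and 3 fell (20.6% called) and the median was -0.01, so only Ndufaf6 among these 5 kept its call (0.42). Quantile normalisation gave 18 higher and 3 lower (33.9% called). Leaving out mice by number gave 7 to 32 called genes. Over the same interval 3 of 5 fibroblast and 8 of 8 endothelial markers fell and 5 of 5 red blood cell markers rose, and their part was not tested.

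In old against 26-week mice on ALF 16 genes were lower (34.8%) and none higher, where 11.2% of all genes were lower and 12.9% higher, and the median was -0.19. Ndufa5 had a lowest, median and highest level of 6.54, 7.26 and 8.39 at 26 weeks and of 6.04, 6.64 and 8.53 in old mice, with overlapping ranges, and differed by -0.54 ± 0.15 (adjusted p 0.00584). Ndufs6 (-0.50 ± 0.13), Ndufa6 (-0.49 ± 0.12), Ndufv3 (-0.48 ± 0.11) and Ndufa1 (-0.48 ± 0.15) were the next, all accessory subunits. Of the core subunits Ndufv2 was lower (-0.26 ± 0.10) and Ndufv1, Ndufs1, Ndufs3, Ndufs7 and Ndufs8 were not called, with differences from -0.19 to 0.14. The length covariate gave 14 lower and 2 higher (25.9% called) and quantile normalisation 17 lower and 2 higher (25.3% called), so this direction held in both. Leaving out mice by number gave 2 to 23 called genes. All 5 tested fibroblast markers were also lower in old muscle, and their part was not tested.

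Ndufv3, Ndufaf5 and Ndufb7 were called in the most of the 14 level comparisons, 9, 8 and 8. Ndufv3 means ± SD at 10 weeks were 4.69 ± 0.37 in WT, 5.04 ± 0.41 in KO, 4.76 ± 0.30 in Mu-RE, 5.09 ± 0.26 in Br-RE and 4.58 ± 0.25 in RE-RE. At 26 weeks they were 5.15 ± 0.32, 5.24 ± 0.51, 4.85 ± 0.36, 5.13 ± 0.29 and 4.84 ± 0.32 in the same order, with TRF at 4.69 ± 0.44 in WT, 5.18 ± 0.51 in KO and 4.80 ± 0.35 in Mu-RE, and with old mice at 4.67 ± 0.41 (ALF) and 4.48 ± 0.44 (TRF). Leaving aside Br-RE and RE-RE, its highest groups are the 3 KO groups and WT on ALF at 26 weeks, and neighbours in the order differ by less than their SD. Ndufb7, a membrane arm subunit on the side of the intermembrane space, stood at 10 weeks at 4.66 ± 0.33, 4.97 ± 0.31, 4.70 ± 0.28, 5.01 ± 0.15 and 4.55 ± 0.23 in that order of genotypes. At 26 weeks it stood at 4.93 ± 0.27, 5.12 ± 0.46, 4.83 ± 0.29, 5.07 ± 0.27 and 4.77 ± 0.34, with TRF at 4.65 ± 0.41, 5.10 ± 0.40 and 4.85 ± 0.35 and old mice at 4.69 ± 0.32 and 4.52 ± 0.37. Its order resembled that of Ndufv3, with old TRF lowest in both.

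The mean of all 46 genes spanned a narrower range. It was 5.92 ± 0.27 in WT, 6.05 ± 0.29 in KO, 5.97 ± 0.25 in Mu-RE, 6.10 ± 0.13 in Br-RE and 5.87 ± 0.19 in RE-RE at 10 weeks, and 6.18 ± 0.25, 6.14 ± 0.41, 6.01 ± 0.28, 6.16 ± 0.22 and 6.06 ± 0.20 at 26 weeks. With TRF it was 5.97 ± 0.31 in WT, 6.21 ± 0.32 in KO and 6.13 ± 0.26 in Mu-RE, and in old mice 5.99 ± 0.32 on ALF and 5.84 ± 0.31 on TRF. Br-RE and RE-RE at 10 weeks differed by more than the SD of either, and among the other groups neighbouring means differ by less than the SD of the libraries. After quantile normalisation the means lay between 5.87 in old TRF and 6.15 in KO TRF, the same lowest and highest groups.

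A daily rhythm was tested as a 24 h cosine within each group. On ALF, calls were made in 2 of the 11 groups. In WT at 10 weeks 1 gene was called (2.17%), where 5.84% of all genes were. It was Ndufaf6, with means of 3.40, 3.56, 3.84, 3.88, 3.94 and 3.92 from ZT0 to ZT20, an amplitude of 0.24 ± 0.06 and a fitted peak at ZT14.28 (adjusted p 0.0483). The length covariate gave 7 calls there (7.54% of all genes), and Ndufaf6 was not among them (adjusted p 0.066 by limma). Those 7 had fitted peaks between ZT1.15 and ZT5.19. Leaving out the mice of any 1 number gave 0 calls. In WT at 26 weeks (1.04% of all genes called), Mu-RE at 10 (0.071%) and 26 weeks (0.0%), Br-RE at 26 weeks (0.69%), RE-RE at 10 (0.588%) and 26 weeks (0.76%), KO at 10 (0.071%) and 26 weeks (0.0%), and old mice on ALF (1.41%) and TRF (5.71%) limma called 0 Nduf genes. At an unadjusted p under 0.05 there were 0, 9, 2, 3, 0, 0, 0, 1, 0 and 0 in that order of groups. The shares of all genes given here are for adjusted calls, not for that level.

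Br-RE muscle at 10 weeks was the exception. There 26 of 46 genes were called rhythmic (56.5%), where 29.0% of all genes were, with fitted peaks between ZT2.57 and ZT6.06 and a median of ZT4.37 over the called genes. Ndufa2, an accessory input-module subunit with a thioredoxin fold, had means of 7.45, 7.86, 7.32, 7.20, 7.06 and 7.08 from ZT0 to ZT20 and an amplitude of 0.36 ± 0.06 (adjusted p 0.00195). Ndufa3 (0.31 ± 0.06), Ndufb2 (0.30 ± 0.05), Ndufa1 (0.30 ± 0.06) and Ndufv3 (0.28 ± 0.05) were next. The mean of the 46 genes was 6.13, 6.26, 6.14, 6.08, 5.98 and 6.03 over those times, while the length slope was -0.0171, -0.0579, 0.0059, 0.0249, 0.0269 and 0.0318. The slope was thus lowest at the time when the Nduf mean was highest. With the slope as a covariate 0 genes were called by limma (1.7% of all genes called), whereas quantile normalisation gave 25 (29.8%). Treating time as a factor gave 15, and leaving out mice by number gave 10 to 24. Of the 82 tested cytosolic ribosomal protein genes 71 were called in the same group. What links these rhythms and the length slope was not tested. No Nduf gene differed in rhythm by limma between Br-RE and KO at 10 weeks (0.913% of all genes called) or between RE-RE and Br-RE (0.152%). At an unadjusted p under 0.05 there were 12 in each, and the share of all genes at that level is not given here.

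**Figure D4:**
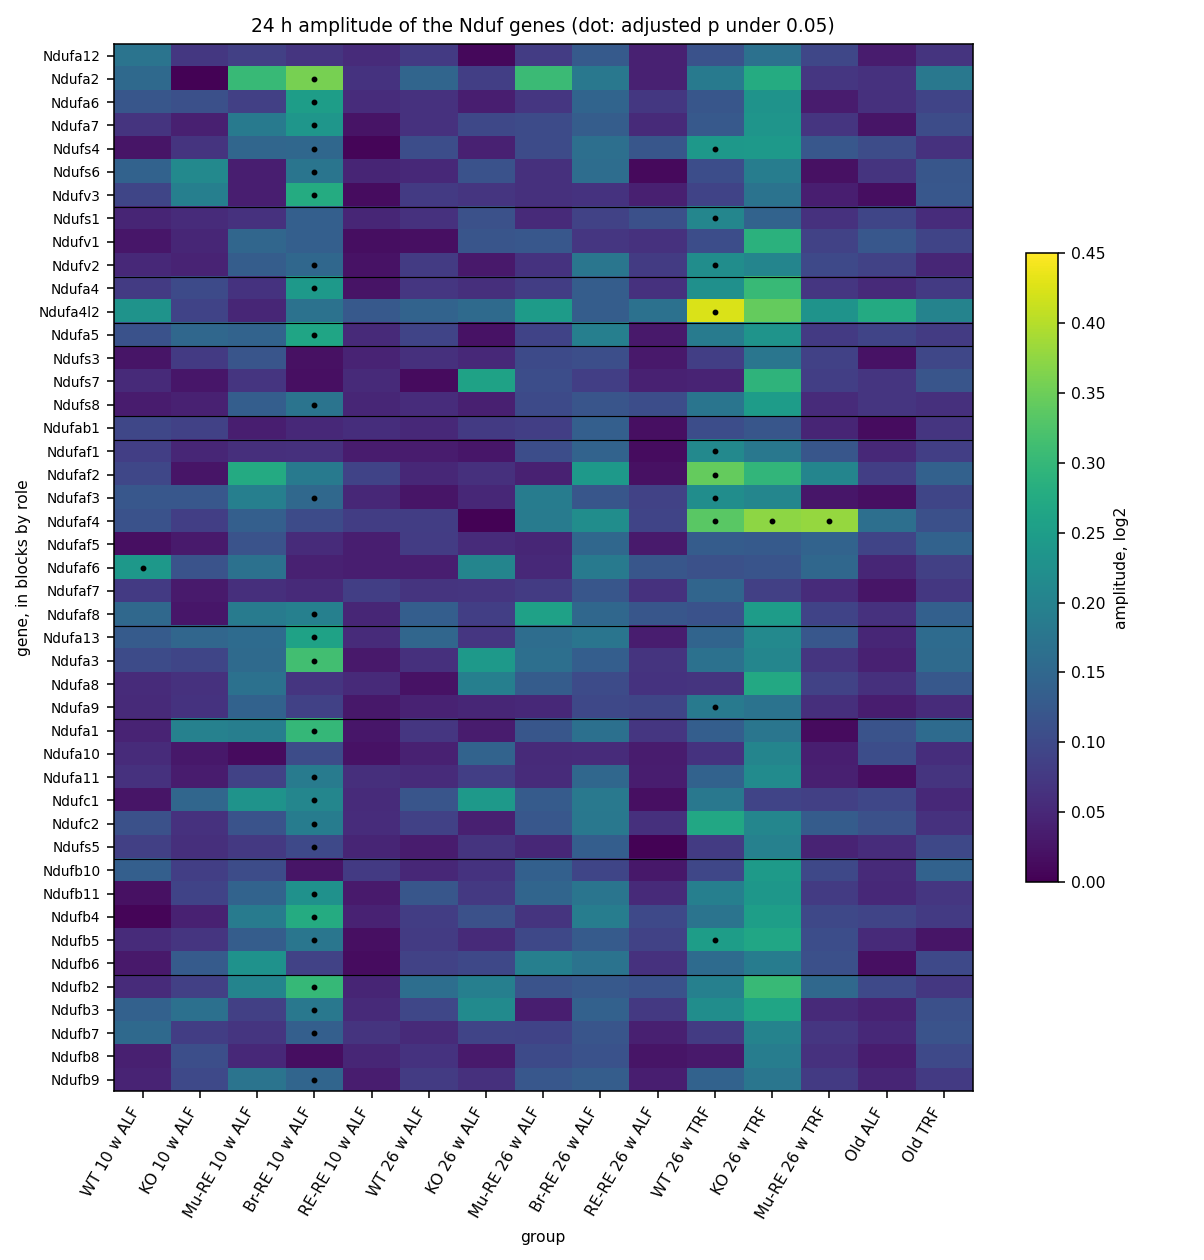
Fitted 24 h amplitude (log2, colour scale from 0 to 0.45) of the Nduf genes in 15 groups, in blocks by role, with a dot where the adjusted p is under 0.05 by limma. Dots fill the column of Br-RE at 10 weeks (26) and are fewer in WT TRF (10), and Ndufaf4 is the row with dots in all 3 TRF groups of 26 weeks.

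Under TRF 10 genes were rhythmic in WT (21.7%), where 37.8% of all genes were, and 1 each in Mu-RE and KO (2.17%), where 6.97% and 6.2% were. Ndufa4l2 had the largest amplitude in WT (0.43 ± 0.09, peak ZT2.58, adjusted p 0.00278), with means of 3.01, 3.06, 2.63, 2.53, 2.09 and 2.61 from ZT0 to ZT20. The other 9 peaked between ZT13.32 and ZT16.47, led by Ndufaf2 (0.34 ± 0.11), Ndufaf4 (0.34 ± 0.06), Ndufb5 (0.25 ± 0.07) and Ndufs4 (0.24 ± 0.07). With the length covariate 8 were called (43.7% of all genes), 4 of them the same genes: Ndufa4l2, Ndufaf4, Ndufaf1 and the core subunit Ndufs1 (0.21 ± 0.04). Quantile normalisation gave 11 (39.6%), time as a factor 4, and leaving out mice by number 2 to 9. In KO the length covariate gave 4 (13.6% of all genes).

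Ndufaf4, which works with Ndufaf3 in building the ubiquinone module, was called rhythmic in the 3 TRF groups of 26 weeks and not in old mice on TRF. In WT TRF its means were 3.16, 3.21, 3.05, 3.63, 3.66 and 3.67 from ZT0 to ZT20, in KO TRF 3.09, 3.08, 3.16, 3.33, 3.95 and 3.51, and in Mu-RE TRF 3.67, 3.17, 3.20, 3.41, 3.76 and 3.88. It was low in the light phase and high in the dark phase in each, with Mu-RE still high at ZT0. The fitted peaks were ZT16.47 (WT, adjusted p 0.00115), ZT16.39 (KO, amplitude 0.37 ± 0.09, adjusted p 0.0459) and ZT18.99 (Mu-RE, 0.38 ± 0.06, adjusted p 0.000484). With the length covariate the amplitudes were 0.28, 0.33 and 0.38. In KO the call was lost with time as a factor (adjusted p 0.102) and on leaving out the mice of any 1 number. The change of rhythm with TRF was called for Ndufaf4 in Mu-RE (difference vector of amplitude 0.50 ± 0.08, adjusted p 0.000312), the 1 Nduf gene (2.17%) where 4.86% of all genes changed. On ALF, Mu-RE means of Ndufaf4 were 3.30, 3.36, 3.45, 3.74, 3.36 and 3.27, highest at ZT12.

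**Figure D5:**
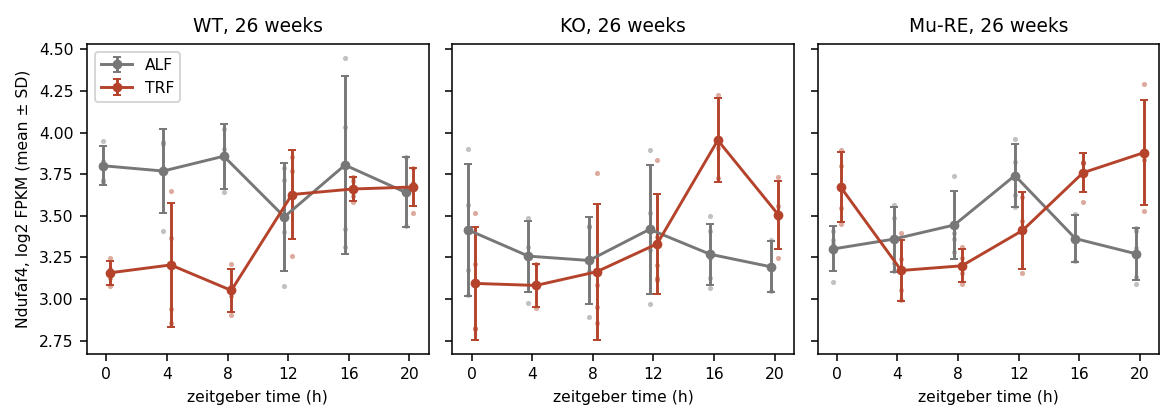
Ndufaf4 level (log2 FPKM, mean ± SD with single libraries as small points) over zeitgeber time in WT, KO and Mu-RE mice of 26 weeks with ALF (grey) and TRF (red). The red curves are at 3.05 to 3.20 at ZT8 and at 3.66 to 3.95 at ZT16, while the grey curves show no shared shape.

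No other change of rhythm was called by limma: none for TRF in WT (3.92% of all genes called, 5 Nduf genes at an unadjusted p under 0.05), in KO (0.0%, 1 gene) or in old mice (0.0%, 0 genes), and none for KO against WT at 10 (0.517%, 0 genes) or 26 weeks (0.172%, 1 gene), Br-RE against KO at 26 weeks (0.0%, 0 genes) or RE-RE against Br-RE at 26 weeks (0.0913%, 3 genes). The percentages are shares of adjusted calls, and no share of all genes is given for the unadjusted counts. These are the fits of the deposited values. For TRF in WT the length covariate and quantile normalisation each gave calls, as counted at the end. A p that misses the threshold does not show equal rhythms, with 3 to 5 mice per time point.

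The 7 complex I subunits encoded in the mitochondrial genome, mt-Nd1 to mt-Nd6 and mt-Nd4l, had medians of the same sign as the Nduf genes in some comparisons and of the opposite sign in others. In KO against WT they were lower, 4 of 7 at 10 weeks (median -0.29) and all 7 at 26 weeks (median -0.65), where the Nduf genes had medians of 0.13 and -0.04. They were lower with TRF in WT (7 of 7, median -0.87) and in KO (6 of 7, median -0.40), in Mu-RE against WT at 26 weeks (7 of 7, -0.61) and in old against 26-week mice (7 of 7, -0.58), where the Nduf medians were -0.23, 0.06, -0.18 and -0.19. They were higher in RE-RE against Br-RE at 26 weeks (6 of 7, 0.51) and in WT at 26 against 10 weeks (5 of 7, 0.54), where the Nduf medians were -0.12 and 0.28. With the length covariate the mitochondrial medians were -0.25, -0.64, -0.99, -0.32, -0.68, -0.61, 0.51 and 0.61 in the order given. The comparisons share groups, so they are not independent of each other.

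The other nuclear subunits of the respiratory chain, 39 genes of complexes II to V, had counts on the same side as the Nduf genes. They were higher in KO at 10 weeks (13 and none lower, median 0.15), lower in RE-RE against Br-RE at 10 weeks (36 of 39, median -0.30), lower with TRF in WT (23, median -0.25), lower in old mice (14, median -0.20) and higher in WT at 26 against 10 weeks (25, median 0.29), and 25 were rhythmic in Br-RE at 10 weeks. With the length covariate the TRF count became 8 lower and 5 higher and the 26-week count 1 higher and 2 lower. The 13 tested complex I assembly factors of other names were 6 higher and 1 lower in KO at 10 weeks and 2 higher and 1 lower at 26 weeks. Of 13 tested regulators of mitochondrial genes 7 were lower in KO at 10 weeks, the largest fall being that of Ppargc1a, the coactivator PGC-1alpha (-0.95 ± 0.12, adjusted p 7.1e-09), and none was higher. Ppargc1a was also lower in Mu-RE than in WT at 10 weeks (-0.78 ± 0.11).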

How the data were processed

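RNA-seq values of 352 mouse tibialis anterior libraries were taken as the authors deposited them, as log2 FPKM per Ensembl gene. The submitters' processing notes name GRCm38, the aligner HISAT2 2.1.0, limma 3.44.1 with edgeR 3.30.0, the counter featureCounts 1.6.2, and Trim Galore 0.5.0 with FastQC 0.11.8; settings are not given in the sources used here. As deposited, the values show 0.01 FPKM added before the log and equal gene means of females and males within sets of 47, 46 and 259 libraries, with gene means of Br-RE and RE-RE equal to those of the other libraries of their age. No sexes were therefore compared, and Br-RE and RE-RE levels were compared only with each other. Strand use is not given, so overlapping genes are uncertain: Ndufaf2 (65.6% of exon bases shared), Ndufb6 (39.0%) and Ndufa13 (30.0%) above all.

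Genes with a mean of at least 0 (9862 of 14413) were fitted with limma 3.58.1 in R 4.3.3 (trend and robust), with a mean and a 24 h cosine and sine per group and a term for sex, and p-values were adjusted by Benjamini-Hochberg over all 9862, with calls at 0.05. Exon lengths came from GENCODE M21, with 9830 tested genes (99.7%) matched. Depth was estimated from the spacing of low values, of which 93.5% to 98.6% per library lay within 0.1 of whole reads. Scripts were tested on simulated data. Alternatives were quantile normalisation, the length slope as a covariate, 1 FPKM added, no filter, a replicate block, time as a factor and leaving out mice. All 46 genes enter the counts, and the text names per comparison and direction the 5 called genes of largest difference (3 of smallest p where none was called) and per group the 5 called of largest amplitude. In some comparisons, but not all, it also names core subunits and assembly factors whatever they show. The values of 1 gene are not reported here, though it enters the counts and means. The members and lists were chosen with earlier results of these data known.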

Additional observations from a re-analysis of the deposited data

Results flagged for a closer look

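The results here are those where the same contrast differed between 2 groups by a test of the difference itself, with limma and Benjamini-Hochberg adjustment. The KO effect was more negative at 26 than at 10 weeks for the assembly factors Ndufaf5 (-0.385 on the log2 scale, adjusted p 0.00993) and Ndufaf6 (-0.502, adjusted p 1.76e-05), and both passed with the length slope as a covariate (-0.236 and -0.439).

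The TRF effect was more positive in KO than in WT for Ndufa2 (0.703), Ndufa4 (0.614), Ndufc2 (0.599), Ndufb4 (0.542), Ndufa6 (0.503), Ndufb5 (0.411), Ndufv2 (0.409), Ndufa11 (0.403) and Ndufaf4 (0.363). None of these 9 passed with the length slope as a covariate, where their values ran from -0.077 to 0.175. Of the 8 tested endothelial markers 7 had a lower TRF effect in KO than in WT, and their part in the result was not tested.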

How the results depend on the processing

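Of 42 counts of called Nduf genes, 42 stayed within 1.5 times with 1 FPKM added, 40 without the filter, 37 after quantile normalisation and 27 with the length slope as a covariate. Of the 97 named values, the covariate kept 67, weakened 25 and reversed 3: Ndufa5 in WT at 26 against 10 weeks (-0.008), and Ndufa2 (-0.077) and Ndufa6 (-0.042) in the difference of the TRF effect between KO and WT. The cause was not tested.

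With the length covariate the called genes numbered 33 (Mu-RE against KO, 10 weeks), 14 (Mu-RE against WT, 10 weeks), 19 (KO against WT, 26 weeks), 7 (Mu-RE against WT, 26 weeks), 9 (TRF in KO), 11 (TRF in Mu-RE), 4 (WT at 26 against 10 weeks), 4 (KO effect by age), 3 (TRF effect, KO against WT), 4 (TRF effect, old against WT), 1 and 2 (rhythm change with TRF in WT and Mu-RE), and 7, 0 and 4 (rhythm in WT at 10 weeks, Br-RE at 10 weeks and KO TRF). Quantile normalisation gave 12 (KO against WT, 26 weeks), 5 (TRF in KO), 17 and 2 (TRF effect, KO and old against WT) and 2 (rhythm change with TRF in WT). Without the filter rhythm counts were 0 in WT at 10 weeks and 0 in KO TRF. Time as a factor gave 0 in WT at 10 weeks, 15 in Br-RE at 10 weeks, 4 in WT TRF, 2 in Mu-RE TRF, 0 in KO TRF and 5 for the rhythm change in Mu-RE. Leaving out 3 libraries of extreme length slope, chosen after seeing the data, gave 3 (TRF in KO), 4 (TRF in Mu-RE), 24 (TRF effect, KO against WT) and 1 (rhythm change with TRF in WT). Each of these libraries enters only the fits that use its own group.

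Mice were left out by their order within each group and time point, 1 mouse of every time point per fit. This gave 7 to 13 and 5 to 9 called genes for KO against WT and Mu-RE against KO at 10 weeks. It gave 1 to 3 for Mu-RE against WT at 10 weeks, and 4 to 8 and 5 to 16 for Mu-RE against KO and WT at 26 weeks. It gave 8 to 31 for RE-RE against Br-RE at 26 weeks, 13 to 24, 0 to 2 and 1 to 5 for TRF in WT, KO and Mu-RE, 2 to 23 for old against 26-week mice and 7 to 32 for WT at 26 against 10 weeks. Differences of effects gave 1 to 2 (KO by age) and 0 to 11 (TRF, KO against WT), rhythm changes 0 to 1 (Br-RE against KO, 10 weeks), 0 to 1 (TRF in WT) and 1 to 2 (TRF in Mu-RE), and rhythms 0 in WT at 10 weeks, 10 to 24 in Br-RE at 10 weeks, 2 to 9 in WT TRF and 0 in KO TRF.

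With the replicate block 28 genes were called for Mu-RE against KO and 31 for Mu-RE against WT at 26 weeks and 12 for TRF in Mu-RE, and the other 11 counts stayed within 1.5 times. Libraries with the same replicate number in their titles correlated with a median r of -0.054 to 0.163 over the 14 comparisons. Not every pair was over 0.1, so these numbers were not taken to pair mice. Whether some numbers share a batch was not tested. In KO on ALF at 26 weeks, for example, the Nduf mean at ZT12 was 5.89 and 5.59 in mice 13 and 14. It was 6.98 and 6.49 in mice 15 and 16. In WT at 10 weeks the order at ZT4 was the reverse, with 6.42 and 6.18 in mice 5 and 6. Mice 7 and 8 there stood at 5.63 and 5.55. The files hold no counts, so depth (14.4 to 46.8 mega-reads) is an estimate.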
